A study of Arabidopsis thaliana with 10 samples.

Results

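The genes described here are 42 nuclear genes of *Arabidopsis thaliana* that encode light-harvesting antenna proteins and subunits of photosystems I and II, out of 32548 genes in the tables. They are a list of named genes and not every such gene, with *PSBTN*, for one, among the assembly and regulation genes below. No expression value entered the rule, though earlier results of these data were known when the list was made. The 20 antenna genes are 6 *LHCA*, 5 *LHCB1*, 3 *LHCB2*, 1 *LHCB3*, 3 *LHCB4*, 1 *LHCB5* and 1 *LHCB6* genes, and the 22 reaction-centre genes are 12 *PSA* and 10 *PSB* genes. RNA-seq was performed in 10 libraries, 2 for each of 5 genotypes, from seedlings 10 days old, kept on MS medium at 23°C, with 8 h of darkness after each 16 h of light. The wild type was Col-0. The *fld* (SALK_075401) and *ld* (SALK_003039) lines and both parts of the double mutant *sdg26 aprf1* (SALK_013895 and *aprf1-9*, WiscDsLox489-492K11) carry T-DNA insertions, and *efl2 efl4*, spelled elf2/4 in the sample titles, was made with CRISPR/Cas9. The mutated genes were studied as parts of the autonomous pathway, which promotes flowering by keeping the repressor gene *FLC* low. The replicates carry the numbers 1 and 2 in every genotype, and these numbers are called replicate set 1 and replicate set 2. The study calls the RNA-seq replicates independent, and neither it nor the labels say whether they were grown separately, so the p-values measure the spread between these libraries, which may be technical.

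In chloroplasts, photosystem II splits water and photosystem I reduces ferredoxin, and each is a core of plastid-encoded and nuclear-encoded subunits surrounded by chlorophyll-binding antenna proteins. LHCA proteins form the antenna of photosystem I. LHCB1, LHCB2 and LHCB3 form the trimeric antenna of photosystem II, LHCII, and LHCB4, LHCB5 and LHCB6 are the monomeric antenna proteins between the trimers and the core. The nuclear genes for these proteins are known for high expression in green tissue and for control by light and by the circadian clock. The plastid-encoded core subunits were not analysed here.

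Each library held between 20455413 and 20768023 reads on genes. The mutated genes matched their labels where they could be checked. *FLD* had 43 and 40 reads in *fld* against 424 to 486 in the other libraries. *SDG26* had 50 and 55 in *sdg26 aprf1* against 265 to 344, and *LD* had 386 and 424 in *ld* against 646 to 770. A CRISPR edit need not lower the RNA, so *EFL2*, with 112 and 147 reads in *efl2 efl4* against 159 to 222, and *EFL4*, with 112 and 91 against 116 to 150, check that label only weakly. *APRF1* was not matched to an identifier and was not checked. Seedlings include roots, and the 9 root markers summed to between 1898 and 2453 RPM (reads scaled to the library total) across the libraries, with 1898 and 2129 in *sdg26 aprf1* against 2136 and 2345 in Col-0, the 3 guard cell markers to between 41.02 and 54.12 and the 2 companion cell markers to between 214 and 249. In bulk tissue, fewer green cells and less RNA per green cell cannot be told apart.

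*LHCB1.4* and *LHCB1.2* had the largest log2 fold changes of the members in *fld* and *ld*, and the *LHCB1* sequences are shown because the copies are close relatives, which short reads tell apart only where they differ. *LHCB1.1* (AT1G29920), *LHCB1.2* (AT1G29910) and *LHCB1.3* (AT1G29930) are neighbours on chromosome 1, at chr1:10474656-10475969 (minus strand), chr1:10472280-10473502 (minus strand) and chr1:10477885-10479114 (plus strand) of TAIR10.1. *LHCB1.4* (AT2G34430, chr2:14524607-14525918, plus strand) and *LHCB1.5* (AT2G34420, chr2:14522524-14523568, minus strand) are neighbours on chromosome 2. All have a single exon. Over the 798 coding bases aligned from the stop codon without gaps, *LHCB1.3* was 96.1% identical to *LHCB1.1*, 96.4% to *LHCB1.2*, 80.1% to *LHCB1.4* and 85.6% to *LHCB1.5*. The 50 coding bases that begin 300 bases before the end of the stop codon, as long as 1 read, are given below, with capitals for bases that differ from *LHCB1.3* (reference genome, RefSeq TAIR10.1).
LHCB1.1: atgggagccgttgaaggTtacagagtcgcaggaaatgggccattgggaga
LHCB1.2: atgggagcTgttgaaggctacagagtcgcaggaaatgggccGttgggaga
LHCB1.3: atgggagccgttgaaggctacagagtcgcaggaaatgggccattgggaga
LHCB1.4: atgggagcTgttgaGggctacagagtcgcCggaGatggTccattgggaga
LHCB1.5: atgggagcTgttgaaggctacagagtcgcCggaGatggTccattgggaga

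This stretch differed from *LHCB1.3* at 1 base in *LHCB1.1*, 2 in *LHCB1.2*, 5 in *LHCB1.4* and 4 in *LHCB1.5*. Of all 50-base windows in the exons, 79.5% were unique in the genome for *LHCB1.1*, 89.4% for *LHCB1.2*, 83.0% for *LHCB1.3* and 86.3% for *LHCB1.4*. For *LHCB1.1*, 13.9% of the windows occurred also in *LHCB1.3*, while 13.6% of those of *LHCB1.4* occurred also in *LHCB1.5*. How reads that match several places were counted is not given in the sources used here. The levels of these copies, and those of *LHCB2.1* and *LHCB2.2* (76.5% and 70.5% unique), are therefore uncertain, as are their differences between libraries.

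The 300 bases before the annotated start of each *LHCB1* gene with reads are shown because each of these genes had its most reads in *ld* replicate 2. The order of the other libraries differed between the genes. Capitals mark 5 motifs searched on both strands, of which 2 were found here: the CCAAT box (CCAAT, or ATTGG on the printed strand) and the CCA1 binding site (AAAAATCT). CCA1 is a clock transcription factor. The other 3 were the G-box (CACGTG), the I-box (GATAAG) and the evening element (AAATATCT), and no marked motifs overlapped.
LHCB1.1, chr1:10475970-10476269, minus strand: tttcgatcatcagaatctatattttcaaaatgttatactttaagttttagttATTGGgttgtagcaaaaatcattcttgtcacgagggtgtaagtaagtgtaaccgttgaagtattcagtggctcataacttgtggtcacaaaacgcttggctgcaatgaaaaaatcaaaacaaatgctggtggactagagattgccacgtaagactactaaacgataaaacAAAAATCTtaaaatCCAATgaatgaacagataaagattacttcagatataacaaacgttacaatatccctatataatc
LHCB1.2, chr1:10473503-10473802, minus strand: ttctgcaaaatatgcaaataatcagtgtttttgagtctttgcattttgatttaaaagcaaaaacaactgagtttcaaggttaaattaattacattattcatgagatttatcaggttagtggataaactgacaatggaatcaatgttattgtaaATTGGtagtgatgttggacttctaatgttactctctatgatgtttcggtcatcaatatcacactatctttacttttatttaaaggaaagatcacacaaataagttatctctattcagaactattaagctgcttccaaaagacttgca
LHCB1.3, chr1:10477585-10477884, plus strand: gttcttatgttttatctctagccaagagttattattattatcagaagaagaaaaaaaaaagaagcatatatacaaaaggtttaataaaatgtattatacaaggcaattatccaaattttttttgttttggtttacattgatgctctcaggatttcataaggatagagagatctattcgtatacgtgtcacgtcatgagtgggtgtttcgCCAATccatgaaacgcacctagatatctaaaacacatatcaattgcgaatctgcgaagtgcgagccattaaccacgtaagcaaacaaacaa
LHCB1.4, chr2:14524307-14524606, plus strand: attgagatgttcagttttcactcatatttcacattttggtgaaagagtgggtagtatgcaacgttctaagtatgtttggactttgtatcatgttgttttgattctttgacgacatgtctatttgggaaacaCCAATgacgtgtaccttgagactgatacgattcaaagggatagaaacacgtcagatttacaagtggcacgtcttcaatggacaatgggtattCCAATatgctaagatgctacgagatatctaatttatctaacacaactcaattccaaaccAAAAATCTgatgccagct

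The CCA1 site, searched only as AAAAATCT, occurred in *LHCB1.1* and *LHCB1.4* and not in the windows of *LHCB1.2* and *LHCB1.3*. Other spellings and bases outside the windows were not searched. The annotated start lies 77, 256, 186 and 211 bases before the coding sequence in *LHCB1.1*, *LHCB1.2*, *LHCB1.3* and *LHCB1.4*, so the windows do not cover matching positions. Over all 42 genes, 66.7% of the windows held a CCAAT box, against 51.2% of 32546 windows genome-wide. They were 18 of the 20 antenna genes and 10 of the 22 reaction-centre genes. A G-box was found in 8 of the 42 windows (6.48% of all windows), an I-box in 9 (14.6%), a CCA1 site in 5 (7.62%) and an evening element in 1 (5.39%). These matches are descriptions of letters and were not tested against the expression values.

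The 42 genes together took between 3.51% and 4.298% of the reads of a library. Levels between genes are compared in reads scaled to exon length and to the library total (RPKM), averaged over the 10 libraries. *LHCB1.3* was highest at 4305 RPKM, followed by *PSBR* at 3789, a photosystem II subunit near the oxygen-evolving complex, and *PSBO1* at 2280, the protein that stabilizes the manganese cluster. *PSBP-1*, another protein of that complex, reached 1382 and *PSAD-1*, which forms part of the ferredoxin docking site of photosystem I, 1325. Of the 23 highest genes by RPKM, 19 were of the class named reaction-centre here. That class holds all *PSA* and *PSB* genes of the list, so also extrinsic proteins and *PSBS*. The next gene was *LHCA3*, an antenna gene, at 441.

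The copies of a family differed widely in level. *LHCB1.2* was at 208 RPKM, *LHCB1.4* at 142 and *LHCB1.1* at 55.7, all far below *LHCB1.3*. The 3 *LHCB2* genes were at 38.2, 28.9 and 29.7 RPKM for *LHCB2.1*, *LHCB2.2* and *LHCB2.3*. Scaled to the windows that are unique and unshared in place of exon length, they were at 53.8, 44.8 and 56.4, so their order depends on the length used. Within *LHCB4*, which encodes CP29, *LHCB4.1* was at 1313 RPKM, *LHCB4.2* at 266 and *LHCB4.3* at 54.2. *LHCA5* and *LHCA6*, whose products link photosystem I to the NDH complex, were at 80.7 and 103 RPKM, against 389 to 1158 for *LHCA1* to *LHCA4*. Among the reaction-centre pairs, *PSAD-1* exceeded *PSAD-2* (426), *PSAH-2* (920) exceeded *PSAH-1* (301), *PSBO1* exceeded *PSBO2* (819), and *PSBQ-1* (1158) exceeded *PSBQ-2* (728), while *PSAE-1* was at 551 and *PSAE-2* at 532. The *PSA* and *PSB* pairs shared no 50-base window. Of the exon bases of *LHCB1.3*, 8.8% are shared with AT1G29940 on the opposite strand. Exons of *PSAG*, *PSAH-1* and *PSAE-1* overlap other annotated genes, leaving 34.5%, 35.6% and 58.2% of their windows both unique and unshared, and *LHCB2.3* had 56.5%. Scaled to such windows, *PSAH-1* was at 953 against 1695 for *PSAH-2*, *PSAE-1* at 1159 against 814 for *PSAE-2*, and *PSAG* at 738 in place of 238, so the sizes of these differences are uncertain.

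*LHCB1.5* had 0 reads in all 10 libraries, where a count of 0 allows up to 3 reads per library. All of its exon bases are shared with the annotated genes AT2G08665, which also had 0 reads everywhere, and AT2G34410, which had between 545 and 741. Both lie on the opposite strand. Whether reads were counted by strand is not given in the sources used here, so it cannot be told apart whether *LHCB1.5* had no RNA or its reads were left out as shared. The other 41 members all had a mean above the filter of 10 normalized reads and were tested.

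**Figure D1:**
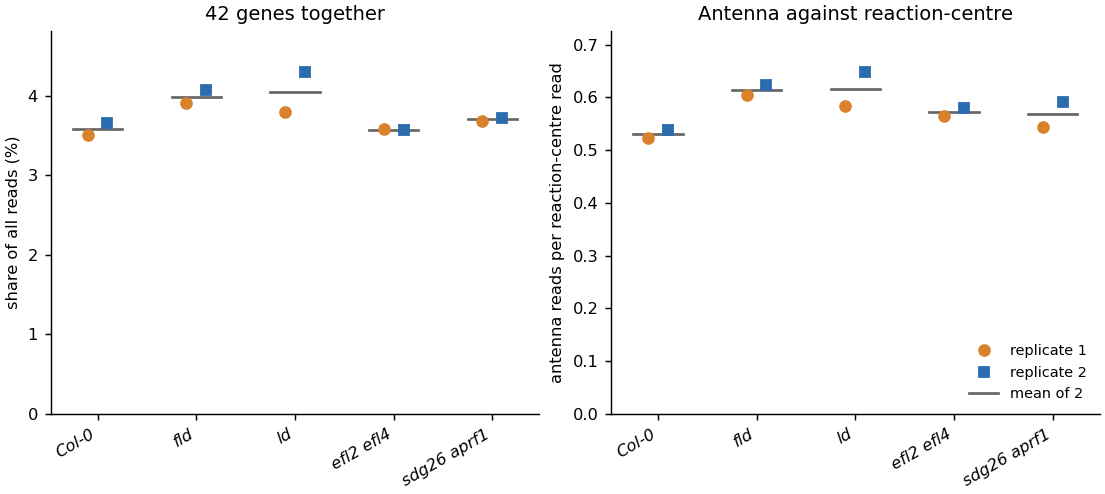
Share of all reads on the 42 genes (left, in percent) and antenna reads divided by reaction-centre reads (right) in the 10 libraries, by genotype, with circles for replicate 1, squares for replicate 2 and lines for the mean of both. The ratio is between 0.524 and 0.539 in Col-0 and between 0.585 and 0.648 in *fld* and *ld*.

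The share of reads on the antenna genes was higher in *fld* and *ld* than in Col-0. It was 1.21% and 1.28% in the Col-0 libraries, 1.47% and 1.56% in *fld*, 1.399% and 1.69% in *ld*, 1.299% and 1.38% in *sdg26 aprf1*, and 1.29% and 1.31% in *efl2 efl4*. The share on the reaction-centre genes was 2.304% and 2.37% in Col-0, 2.43% and 2.51% in *fld*, 2.39% and 2.61% in *ld*, 2.39% and 2.34% in *sdg26 aprf1*, and 2.29% and 2.26% in *efl2 efl4*. Antenna reads per reaction-centre read stood at 0.524 and 0.539 in Col-0, 0.604 and 0.623 in *fld*, 0.585 and 0.648 in *ld*, 0.544 and 0.592 in *sdg26 aprf1*, and 0.565 and 0.581 in *efl2 efl4*. Both libraries of every mutant exceeded both Col-0 libraries in this ratio. *LHCB1.3* had more reads than any other antenna gene. Without it the ratio was 0.345 and 0.340 in Col-0, 0.375 and 0.372 in *fld*, 0.370 and 0.382 in *ld*, 0.347 and 0.358 in *sdg26 aprf1*, and 0.358 and 0.349 in *efl2 efl4*. Both libraries of every mutant were again above both of Col-0, though in *sdg26 aprf1* by as little as 0.347 against 0.345.

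The comparison of each mutant with Col-0 asks which of the photosystem genes differ when a part of the autonomous pathway is lost. Each was made within its own table by limma on log2(normalized reads + 1). The same 2 Col-0 libraries serve all 4, so the comparisons are not independent. Libraries of a mutant that lie wholly above or below those of Col-0 are a description. With 2 libraries against 2, a two-sided rank test cannot give a P under 0.333. The share of all genes with such a separation is not given here. The largest member difference in *fld* and *ld* was that of *LHCB1.4*. It had 1856 and 2743 reads in Col-0, 4305 and 5708 in *fld*, 4458 and 6669 in *ld*, 2716 and 3289 in *sdg26 aprf1*, and 2971 and 3518 in *efl2 efl4*. All *fld* and *ld* libraries lay above all others, and both *efl2 efl4* libraries lay above both of Col-0. In *sdg26 aprf1* the lower library was close to the higher one of Col-0, just below it in reads and just above it in normalized reads (2741.9 against 2718.9). Its log2 fold change was 1.14 ± 0.24 (SE) in *fld*, a 2.201-fold higher level, and 1.297 ± 0.27 in *ld*, a 2.46-fold higher level.

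*LHCB1.4* was the single member past the study's thresholds, a log2 fold change of at least 1 either way and an unadjusted P under 0.01, in both mutants. In limma its unadjusted P was 0.00551 in *fld* and 0.00581 in *ld*. These thresholds were passed by 0.394% of all genes tested in *fld* and 0.504% in *ld*, and by none of the members in *efl2 efl4* (0.434% of all genes) and *sdg26 aprf1* (0.498%). Its Benjamini-Hochberg adjusted p in limma was 0.954 in *fld* (from 8.7e-07 to 1 over the alternatives) and 0.882 in *ld* (4.0e-06 to 1). Once the replicate number entered the model as a block, its adjusted p in limma was 8.7e-07 in *fld* and 4.0e-06 in *ld*. It was 0.335 in *sdg26 aprf1* and 0.00411 in *efl2 efl4*. Within a table this fit leaves little spread of a gene's own, so its p-values lean on the spread of other genes. In edgeR on all 10 libraries with the block, the adjusted p of *LHCB1.4* was 2.7e-04 in *fld*, 9.9e-05 in *ld*, 0.0379 in *sdg26 aprf1* and 0.0149 in *efl2 efl4*. The call at the study's thresholds was lost without Col-0 replicate 1 or without *fld* replicate 2 in *fld*, where the log2 fold change was 0.86 and 0.93. In *ld* it was lost without Col-0 replicate 1 or without *ld* replicate 2 (1.02 and 0.996), and *LHCB1.2* passed as a second member without Col-0 replicate 2 or without *ld* replicate 1.

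The other *LHCB1* genes with reads were also higher in *fld* and *ld*. *LHCB1.2* had 3333 and 4093 reads in Col-0, 6644 and 6334 in *fld*, 6042 and 7774 in *ld*, 3818 and 5175 in *sdg26 aprf1*, and 4317 and 4798 in *efl2 efl4*. *LHCB1.3* had 84558 and 97302 in Col-0, 115640 and 129716 in *fld*, 105809 and 142017 in *ld*, 96954 and 112571 in *sdg26 aprf1*, and 98677 and 106995 in *efl2 efl4*. *LHCB1.1* had 1134 and 1342 in Col-0, 1560 and 1628 in *fld*, 1487 and 2020 in *ld*, 1436 and 1736 in *sdg26 aprf1*, and 1356 and 1377 in *efl2 efl4*. For these 3 genes, every *fld*, *ld* and *efl2 efl4* library was above both Col-0 libraries. In *sdg26 aprf1* this also held for *LHCB1.1*, while *LHCB1.2* overlapped Col-0. For *LHCB1.3* it held there in normalized reads (lower library 97876.3 against 96447.2) and not in reads. *LHCB1.1* shares windows with *LHCB1.3*, which had far more reads, and whether the differences of *LHCB1.1* are its own was not tested. In *fld* the log2 fold changes were 0.82 ± 0.11 for *LHCB1.2*, 0.44 ± 0.10 for *LHCB1.3* and 0.37 ± 0.11 for *LHCB1.1*, with unadjusted P in limma of 0.00101, 0.00742 and 0.0204. In *ld* they were 0.92 ± 0.17, 0.46 ± 0.17 and 0.52 ± 0.19, with unadjusted P of 0.00335, 0.0422 and 0.041. None passed an adjusted p of 0.05 in limma without the block. With it, the adjusted p for *LHCB1.2*, *LHCB1.3* and *LHCB1.1* was 1.4e-04, 1.6e-04 and 0.0101 in *fld*, and 2.6e-05, 0.00626 and 0.00463 in *ld*. In edgeR on all 10 libraries with the block, *LHCB1.1* in *fld* had an adjusted p of 0.133, and the other 5 of these stayed under 0.05.

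In *efl2 efl4* and *sdg26 aprf1* the log2 fold changes of the *LHCB1* genes lay between 0.14 and 0.52. The log2 fold changes in *efl2 efl4* were 0.52 ± 0.21 for *LHCB1.4*, 0.30 ± 0.13 for *LHCB1.2*, 0.18 ± 0.10 for *LHCB1.3* and 0.14 ± 0.11 for *LHCB1.1*, none with an unadjusted P under 0.05 in limma. With the block *LHCB1.2* had an adjusted p of 0.0457 in limma, beside the 0.00411 of *LHCB1.4*. In edgeR on all 10 libraries with the block, that of *LHCB1.2* was 0.169. In *sdg26 aprf1* they were 0.41 ± 0.21 for *LHCB1.4*, 0.28 ± 0.18 for *LHCB1.2*, 0.21 ± 0.12 for *LHCB1.3* and 0.36 ± 0.14 for *LHCB1.1*. Only *LHCB1.1* among them had an unadjusted P under 0.05 in limma there (0.0457), and none had an adjusted p under 0.05 in limma with or without the block. *LHCB1.4* had an adjusted p of 0.0379 in edgeR's quasi-likelihood test on all 10 libraries with the block.

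**Figure D2:**
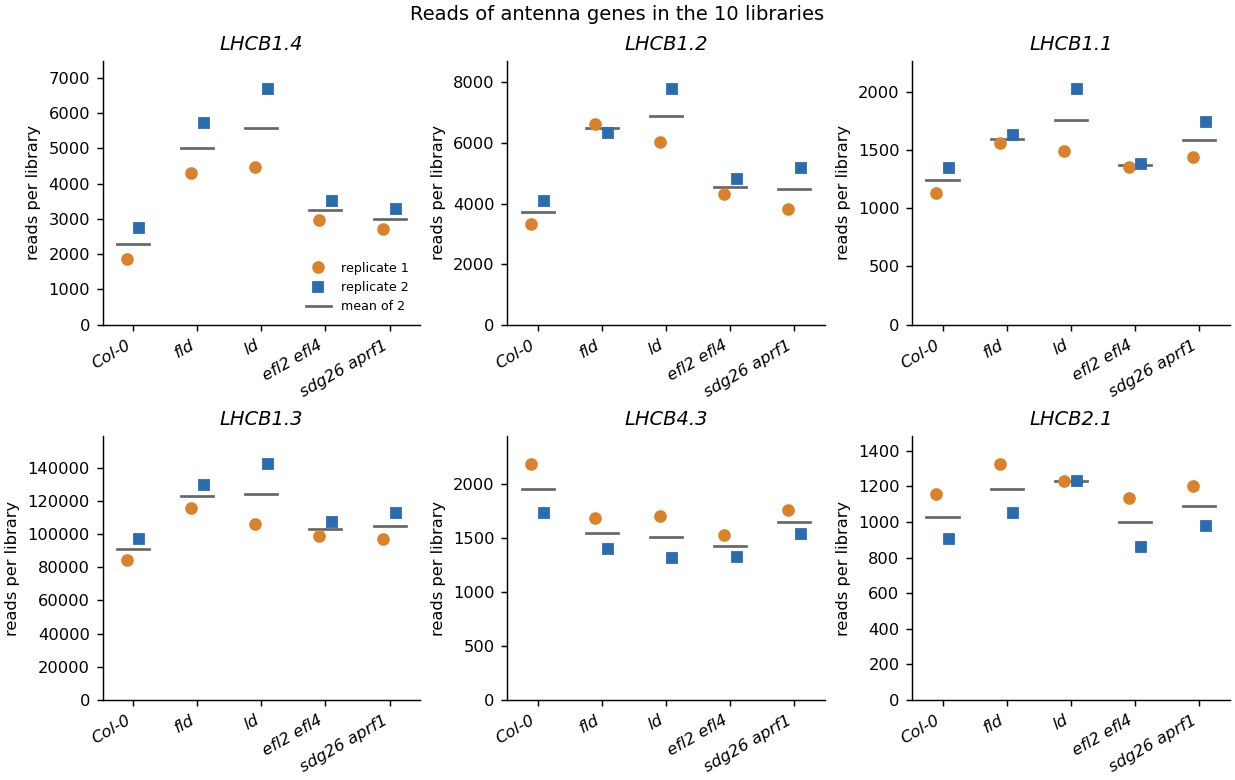
Reads per library of 6 antenna genes in the 5 genotypes, each panel from 0 on its own linear scale, with circles for replicate 1, squares for replicate 2 and lines for the mean of both. *LHCB1.4* is between 4305 and 6669 reads in *fld* and *ld* and between 1856 and 3518 in the other libraries, and *LHCB4.3* is lower in replicate 2 of every genotype.

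Counted over the family, *fld* had 13 members higher and 0 lower at an unadjusted P under 0.05 in limma, 8 of 19 antenna genes and 5 of 22 reaction-centre genes. Over all genes tested the shares were 2.09% higher and 1.7% lower. In *ld*, 12 members were higher and 0 lower, 8 antenna and 4 reaction-centre genes, against 2.34% and 1.93% of all genes. A member with an unadjusted P under 0.05 need not pass an adjusted one. Leaving out Col-0 replicate 1, *fld* replicate 1 or *fld* replicate 2 gave 8, 7 and 8 members in *fld*, all higher, and leaving out Col-0 replicate 2 gave 8 higher and 1 lower, *LHCB4.3*. In *ld*, leaving out Col-0 replicate 1, Col-0 replicate 2 or *ld* replicate 2 gave 7, 7 and 4, and leaving out *ld* replicate 1 gave 18. The counts without Col-0 replicate 2 and without *ld* replicate 1 include 1 lower member, *LHCB4.3*. The exact test of edgeR counted 8 members in *fld* and 7 in *ld*, against 3.1% and 3.52% of all genes. The median log2 fold change of the members was 0.11 in *fld* and 0.14 in *ld*, against 0.0004 and 0.0007 over all genes tested.

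With an adjusted p under 0.05, 0 members were called by limma or by edgeR's quasi-likelihood test in *fld* and *ld*. That limma fit called almost no gene: 1 higher and 1 lower of 20053 tested in *fld*, and 1 higher and 0 lower of 20026 in *ld*. DESeq2 and edgeR's exact test called 2 members in each mutant, *LHCB1.4* and *LHCB1.2*. Of all genes, DESeq2 called 0.175% in *fld* and 0.265% in *ld*, and the exact test 0.464% and 0.539%. With the replicate block, limma called 13 members higher and 1 lower in *fld*, where 1.35% of all genes were called higher and 0.908% lower. In *ld* it also called 13 higher and 1 lower, against 2.17% and 1.2% of all genes. The member called lower was *LHCB4.3* in both. The edgeR quasi-likelihood test on all 10 libraries with the block, an alternative chosen after seeing the data, called 5 higher and 1 lower in *fld*, against 0.369% and 0.319% of all genes, and 7 higher and 1 lower in *ld*, against 0.793% and 0.658%. Of the calls of limma with the block, it did not make those of *LHCB1.1*, *LHCB2.3*, *LHCA2*, *PSBQ-2*, *PSAE-1*, *LHCB4.1*, *LHCB4.2* and *PSAO* in *fld* (adjusted p from 0.0508 to 0.36), nor those of *LHCB2.3*, *LHCA2*, *LHCA3*, *PSAE-1*, *LHCB4.1* and *LHCB4.2* in *ld* (0.0586 to 0.18).

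Beside *LHCB1*, the photosystem I antenna genes *LHCA1* and *LHCA2* were higher in *fld* and *ld*. *LHCA1* had 8922 and 9285 reads in Col-0, 11468 and 11121 in *fld*, 11143 and 11705 in *ld*, 9165 and 8938 in *sdg26 aprf1*, and 10546 and 9723 in *efl2 efl4*. *LHCA2* had 30037 and 29964 in Col-0, 36401 and 36876 in *fld*, 33827 and 39176 in *ld*, 31904 and 33306 in *sdg26 aprf1*, and 33186 and 30958 in *efl2 efl4*. The *fld*, *ld* and *efl2 efl4* libraries were above those of Col-0 in both genes, and those of *sdg26 aprf1* in *LHCA2*. The log2 fold change of *LHCA1* was 0.31 ± 0.06 in *fld* and 0.35 ± 0.07 in *ld* (unadjusted P 0.00403 and 0.00522 in limma; with the block, adjusted p 0.00319 and 0.00427). That of *LHCA2* was 0.29 ± 0.05 and 0.30 ± 0.10 (unadjusted P 0.00334 and 0.0272; with the block, adjusted p 0.00298 and 0.0298).

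*LHCA3*, a further photosystem I antenna gene, had 14634 and 13768 reads in Col-0, 16310 and 15563 in *fld*, 16410 and 16926 in *ld*, 14458 and 13438 in *sdg26 aprf1*, and 13717 and 12424 in *efl2 efl4*. Its log2 fold change was 0.26 ± 0.07 in *ld* (unadjusted P 0.0196 in limma; with the block, adjusted p 0.0315) and 0.17 ± 0.07 in *fld* (unadjusted P 0.0562; with the block, adjusted p 0.0582). *LHCB2.3*, an LHCII gene, had 796 and 735 reads in Col-0, 1121 and 933 in *fld*, 975 and 1126 in *ld*, 858 and 923 in *sdg26 aprf1*, and 814 and 687 in *efl2 efl4*. Its libraries in *fld*, *ld* and *sdg26 aprf1* were above those of Col-0. The log2 fold change was 0.42 ± 0.12 in *fld* and 0.48 ± 0.12 in *ld* (unadjusted P 0.0208 and 0.0121 in limma; with the block, adjusted p 0.00859 and 0.019; in edgeR on all 10 libraries with the block, 0.154 and 0.0697). *LHCB2.1* and *LHCB2.2* had log2 fold changes of 0.21 and 0.12 in *fld* and 0.29 and 0.11 in *ld*. None had an unadjusted P under 0.05 in limma without the block. With the block, *LHCB2.1* had an unadjusted P of 0.00589 in *fld* and 0.00797 in *ld* (adjusted p 0.132 and 0.122).

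Among the reaction-centre genes, the differences in *fld* and *ld* lay between -0.02 and 0.36 on the log2 scale. *PSAE-2*, a stromal subunit of photosystem I, had 5789 and 5719 reads in Col-0, 7225 and 7281 in *fld*, 7358 and 7146 in *ld*, 6964 and 6672 in *sdg26 aprf1*, and 6578 and 5832 in *efl2 efl4*. Every mutant library was above both Col-0 libraries for this gene. Its log2 fold change was 0.34 ± 0.06 in *fld*, 0.36 ± 0.07 in *ld*, 0.25 ± 0.08 in *sdg26 aprf1* and 0.10 ± 0.09 in *efl2 efl4*. In the same order, the unadjusted P in limma was 0.00346, 0.00382, 0.0275 and 0.32, and with the block the adjusted p was 0.0028, 0.00408, 0.427 and 0.59. Its paralog *PSAE-1* had log2 fold changes of 0.20 ± 0.06 in *fld* and 0.28 ± 0.10 in *ld* (unadjusted P 0.022 and 0.0412; with the block, adjusted p 0.0301 and 0.0291).

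*PSBQ-2*, an extrinsic protein of the oxygen-evolving complex, had 16475 and 17422 reads in Col-0, 20620 and 21543 in *fld*, 19472 and 22425 in *ld*, 17523 and 19282 in *sdg26 aprf1*, and 18169 and 17619 in *efl2 efl4*. Its paralog *PSBQ-1* had log2 fold changes of 0.00 ± 0.06 in *fld* and 0.02 ± 0.08 in *ld*. For *PSBQ-2* they were 0.32 ± 0.06 and 0.33 ± 0.10 (unadjusted P 0.00478 and 0.0219 in limma; with the block, adjusted p 0.00203 and 0.00985; in edgeR on all 10 libraries with the block, 0.0508 and 0.0329). The 2 copies were not tested against each other. *PSBO1* had 65119 and 66490 reads in Col-0, 74228 and 72672 in *fld*, 73721 and 75451 in *ld*, 73913 and 71205 in *sdg26 aprf1*, and 70537 and 64574 in *efl2 efl4*. Its log2 fold change was 0.16 ± 0.05 in *fld* and 0.21 ± 0.06 in *ld* (unadjusted P 0.0244 and 0.0208), and with the block the adjusted p was 0.0546 and 0.0531.

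*LHCB4.3* went the other way. It had 2182 and 1731 reads in Col-0, 1689 and 1398 in *fld*, 1706 and 1319 in *ld*, 1759 and 1541 in *sdg26 aprf1*, and 1525 and 1325 in *efl2 efl4*. On the normalized reads, both libraries of *fld* and of *efl2 efl4* were below both of Col-0, while *ld* (1708.1 and 1340.3 against 2175.4 and 1706.6) and *sdg26 aprf1* overlapped Col-0. Within each replicate set every mutant was below Col-0. In *efl2 efl4* it was the single member with an unadjusted P under 0.05 in limma (0.0316), with a log2 fold change of -0.45 ± 0.15. There, 2.67% of all genes were higher and 2.02% lower at that threshold. The P exceeded 0.05 without Col-0 replicate 1 or without *efl2 efl4* replicate 2, at log2 fold changes of -0.275 and -0.355. In *fld* and *ld* the log2 fold change was -0.34 ± 0.16 and -0.35 ± 0.18 (unadjusted P 0.0932 and 0.111). With the block the adjusted p in limma was 0.0107 in *fld*, 0.00922 in *ld*, 0.544 in *sdg26 aprf1* and 0.00712 in *efl2 efl4*. *LHCA5* was also lower in each mutant, at -0.08 in *fld*, -0.09 in *ld*, -0.11 in *sdg26 aprf1* and -0.17 in *efl2 efl4*. So was *PSBO2*, from -0.097 in *sdg26 aprf1* to -0.015 in *ld*. Neither had an unadjusted P under 0.05 in limma without the block. With it, *LHCA5* in *efl2 efl4* had an unadjusted P of 0.0452 (adjusted p 0.337).

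With the block, limma called 2 members higher and 1 lower in *efl2 efl4*, against 1.7% and 1.16% of all genes, and 0 in *sdg26 aprf1*, against 0.0299% and 0.00997%. In *sdg26 aprf1*, 6 members had an unadjusted P under 0.05 with the block in limma, against 8.57% of all genes, and edgeR's test on all 10 libraries with the block called 2, *LHCB1.4* and *PSAE-2*, both higher, against 1.48% of all genes higher and 0.648% lower. In *efl2 efl4* that test called *LHCB1.4* higher and *LHCB4.3* lower, against 1.25% and 0.912%. Without the block, 2 members were higher at an unadjusted P under 0.05 in *sdg26 aprf1*, *LHCB1.1* and *PSAE-2*, against 2.68% of all genes higher and 1.88% lower. The count in *efl2 efl4* was 0 without Col-0 replicate 1 and 3 without Col-0 replicate 2. That in *sdg26 aprf1* was 0 by DESeq2 and by edgeR's exact test (2.55% and 4.17% of all genes), without Col-0 replicate 1 and without *sdg26 aprf1* replicate 2. In *sdg26 aprf1*, 8 of the 9 root markers were below Col-0 (median log2 fold change -0.14, 2 with an unadjusted P under 0.05 in limma), and their part in these values was not tested. The median log2 fold change of the members was 0.04 in *sdg26 aprf1* and -0.05 in *efl2 efl4*.

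**Figure D3:**
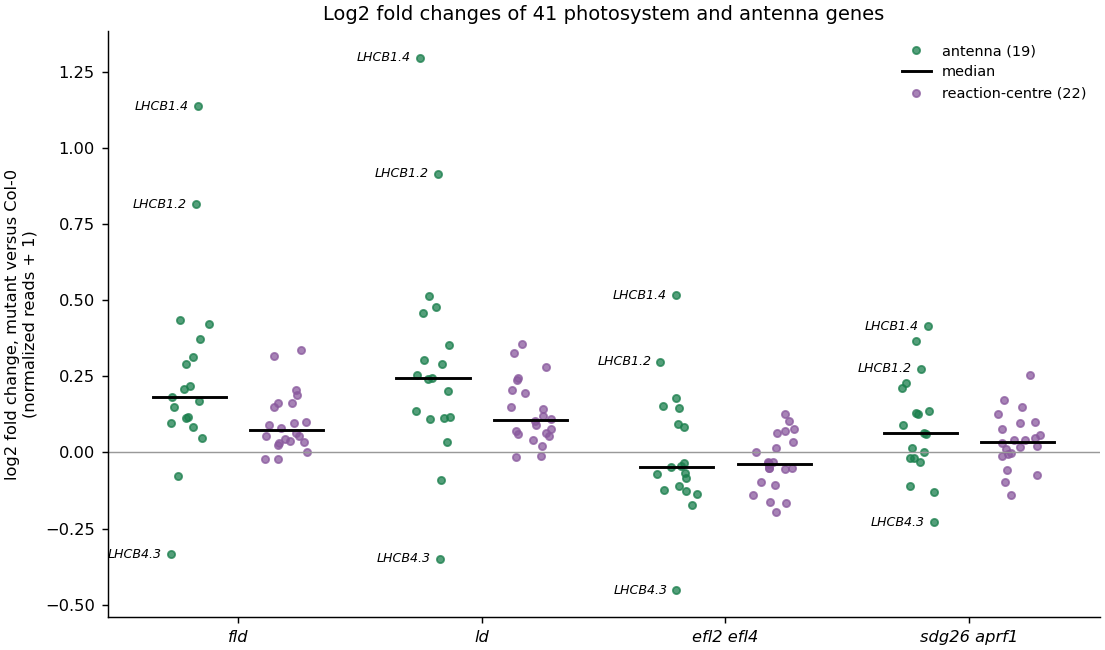
Log2 fold changes of normalized reads + 1 against Col-0 for 19 antenna genes (green) and 22 reaction-centre genes (purple) in the 4 mutants, 1 point per gene, with black lines for the medians. *LHCB1.4* is highest in each mutant, from 0.41 in *sdg26 aprf1* to 1.297 in *ld*, and *LHCB4.3* is lowest in each.

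As groups, antenna genes had the higher median in *fld* and *ld*, which was not tested. The median log2 fold change was 0.18 for antenna and 0.07 for reaction-centre genes in *fld*, 0.25 and 0.11 in *ld*, 0.06 and 0.04 in *sdg26 aprf1*, and -0.05 and -0.04 in *efl2 efl4*. By subgroup in *fld*, the median was 0.63 for *LHCB1*, 0.21 for *LHCB2*, 0.13 for *LHCA*, 0.09 for *PSA* and 0.04 for *PSB*. In *ld* the same medians were 0.72, 0.29, 0.20, 0.11 and 0.06. The antenna median minus the reaction-centre median was 0.11 in *fld* and 0.14 in *ld*, and it ranged from -0.0004 (without *fld* replicate 1) to 0.17 (without Col-0 replicate 1) and from 0.05 to 0.24 when a library was left out. In *fld* it was 0.03 without Col-0 replicate 2. In *ld* it was 0.24 without Col-0 replicate 1, 0.05 without Col-0 replicate 2 and 0.07 without *ld* replicate 1.

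Whether a member differed among the 4 mutants was tested by an F test of edgeR that took in every library as recovered reads, with the replicate block and with Col-0 outside the contrast. Of the members, 4 passed an adjusted p of 0.05, against 2.7% of 20057 genes. They were *LHCB1.4* (F 53.6, adjusted p 8.3e-04), *LHCB1.2* (23.4, 0.01), *LHCA3* (18.3, 0.0186) and *LHCA1* (15.9, 0.0245), all antenna genes. Their levels were highest in *fld* and *ld*. Without the block, a fit also chosen after seeing the data, 0 members passed in edgeR. The share of all genes that passed it is not given here. For the same genes the adjusted p values were 0.597, 0.517, 0.377 and 0.312, and the unadjusted P values 0.0168, 0.011, 0.00474 and 0.0027.

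The comparison of the replicate sets asks which photosystem genes differ between the numbered replicates in the same way in all genotypes. Set 2 was compared with set 1 by limma on the 5 within-genotype differences, with an adjusted p under 0.05 as the threshold, which 13.9% of all genes passed as higher in set 2 and 15.2% as lower. Of the 41 members, 9 were higher and 4 were lower in set 2, a share of calls near that of all genes. What distinguishes the sets is not given in the labels. By class, 5 antenna genes were higher and 3 lower, and 4 reaction-centre genes were higher and 1 lower.

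*PSAD-2* had the largest difference among the members. Its reads in set 1 and set 2 were 6947 and 9825 in Col-0, 6790 and 9698 in *fld*, 6981 and 11161 in *ld*, 8120 and 9524 in *sdg26 aprf1*, and 6770 and 8075 in *efl2 efl4*. It was higher in set 2 in 5 of 5 genotypes, with a log2 difference of 0.44 ± 0.06 (adjusted p 7.2e-04). *PSAD-1*, its paralog, was also higher in 5 of 5, from 0.08 to 0.35, with a mean of 0.21 ± 0.04 (adjusted p 0.00467). *PSAF*, which with *PSAN* docks the electron donor plastocyanin, differed by 0.20 ± 0.04 (0.00503) and *PSAN* by 0.17 ± 0.04 (0.0104), both in 5 of 5 genotypes.

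The *LHCB1* genes with reads were higher in set 2. *LHCB1.4* was higher in 5 of 5 genotypes by 0.25 to 0.60, with a mean log2 difference of 0.42 ± 0.06 (adjusted p 3.8e-04). *LHCB1.2* was higher in 4 of 5, from -0.06 in *fld* to 0.42 in *sdg26 aprf1* (mean 0.24 ± 0.06, adjusted p 0.0168). *LHCB1.3* and *LHCB1.1* were higher in 5 of 5, by 0.23 ± 0.05 and 0.21 ± 0.06 (adjusted p 0.00739 and 0.0234). *LHCB4.2* was higher in 5 of 5, by 0.27 ± 0.05 (adjusted p 0.00305).

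Other antenna genes were lower in set 2. *LHCA6* had 2729 and 2160 reads in set 1 and set 2 of Col-0, 2701 and 2326 in *fld*, 2845 and 2421 in *ld*, 2859 and 1989 in *sdg26 aprf1*, and 2599 and 2060 in *efl2 efl4*. All set 1 libraries were above all set 2 libraries, and the log2 difference was -0.33 ± 0.05 (adjusted p 9.1e-04). *LHCB2.1* was lower in 4 of 5 genotypes, with differences from -0.39 to 0.02 and a mean of -0.28 ± 0.06 (adjusted p 0.00635), where *ld* had 1232 and 1229 reads. *LHCB4.3* was lower in 5 of 5, by -0.27 ± 0.04 (adjusted p 6.2e-04). *PSBS*, the protein required for energy-dependent quenching of excess light, was lower in 5 of 5 within the narrow range of -0.22 to -0.16 (mean -0.18 ± 0.03, adjusted p 0.00173).

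Medians over families were as follows, with no test. The median log2 difference was 0.23 over the 4 *LHCB1* genes and -0.11 over the 3 *LHCB2* genes, 0.08 over the 12 *PSA* genes and -0.01 over the 10 *PSB* genes. The *LHCB1* median was above 0 in every genotype, while that of *LHCB2* ran from -0.33 in *efl2 efl4* to 0.16 in *ld* and that of *PSB* from -0.09 in *sdg26 aprf1* to 0.07 in *ld*. The smallest differences were those of *LHCB5* (-0.005 ± 0.038, 95% interval -0.089 to 0.078) and *LHCB3* (0.007 ± 0.037, -0.074 to 0.088) among antenna genes. Among reaction-centre genes they were those of *PSAH-2* and *PSBQ-1*, with differences from -0.09 to 0.10 and from -0.12 to 0.14 across genotypes. The antenna median was 0.01 and the reaction-centre median 0.03, beside 0.0038 over all genes. No member reached a log2 difference of 1 with an unadjusted P under 0.01 in limma, edgeR's quasi-likelihood test or DESeq2, while 14 of the 41 had an unadjusted P under 0.05 in limma, as 40.2% of all genes did. Without pairing by genotype, a fit that called 22.8% of all genes, 4 were higher (*PSAD-2*, *PSAF*, *PSAN* and *LHCB4.2*) and 3 lower (*LHCA6*, *LHCB2.1* and *PSBS*) at an adjusted p under 0.05, and the calls of the 4 *LHCB1* genes, *LHCB4.3* and *PSAD-1* were lost.

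**Figure D4:**
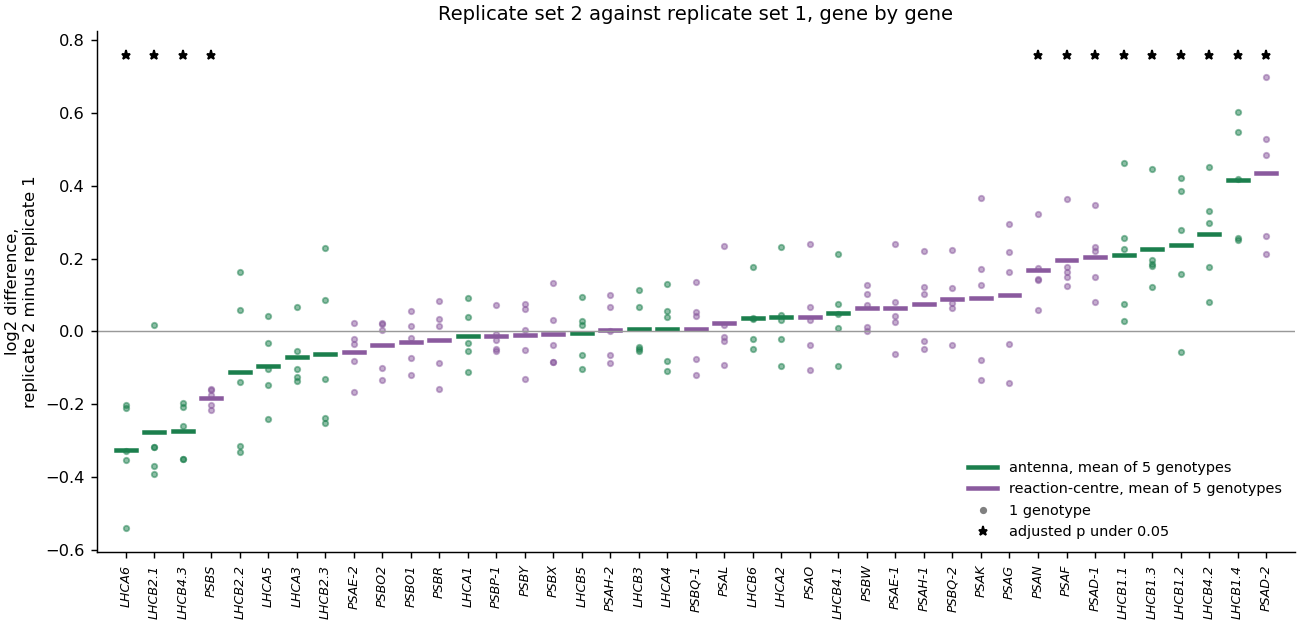
Log2 difference of normalized reads + 1 between replicate 2 and replicate 1 for the 41 tested genes, ordered by the mean, with 1 point per genotype, lines for the mean of 5 genotypes in green for antenna and purple for reaction-centre genes, and stars for an adjusted p under 0.05. The means run from -0.33 for *LHCA6* to 0.44 for *PSAD-2*.

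Genes that work with the photosystems were read from lists of their own. Values here are from limma with the block, with the SE of that fit. Without the block limma called 0 genes of these lists at an adjusted p under 0.05 in any mutant. Of all genes tested, it then called 1 higher and 1 lower in *fld*, 1 higher in *ld*, 1 higher in *efl2 efl4* and 0 in *sdg26 aprf1*. At an unadjusted P under 0.05 without the block, *FD1*, *GAPB*, *GNC*, *LHY* and *ASN1* were the genes named below that passed in *fld*, and *FD1*, *GNC* and *LHY* in *ld*. At that threshold 1 electron carrier and 1 transcriptional regulator were lower in *sdg26 aprf1*, where 1.88% of all genes were lower. In *efl2 efl4*, 1 carbon fixation gene was lower, against 2.02% of all genes. With the block, 1.35% of all genes were called higher and 0.908% lower in *fld*, 2.17% and 1.2% in *ld*, and 1.7% and 1.16% in *efl2 efl4*. In *sdg26 aprf1* it called almost no gene, 0.0299% higher and 0.00997% lower. Of 12 carbon fixation genes, *GAPB*, a subunit of the Calvin cycle dehydrogenase, was the one called at an adjusted p under 0.05, in *fld* (-0.18 ± 0.04, adjusted p 0.0364). Their median log2 fold changes were -0.05, 0.03, -0.13 and -0.005 in *fld*, *ld*, *efl2 efl4* and *sdg26 aprf1*. Of 10 electron carriers and ATP synthase subunits, *FD1*, a leaf ferredoxin, was the one member called with the block, at -0.26 ± 0.04 in *fld* and -0.32 ± 0.05 in *ld* (adjusted p 0.0088 and 0.00541). Of 16 photosystem assembly and regulation genes, 0 were called in any mutant by limma with or without the block, or by edgeR on all 10 libraries with it. At an unadjusted P under 0.05 limma with the block gave 2 in *fld*, 3 in *ld*, 0 in *sdg26 aprf1* and 2 in *efl2 efl4*, where 13.9%, 16.6%, 8.57% and 14.2% of all genes passed in the same order, and without the block 0 in each.

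Of 14 chlorophyll synthesis genes tested, 1 was called with the block in each of 3 mutants, *PORB* in *fld* (0.24 ± 0.04, adjusted p 0.0131) and *ld* (0.26 ± 0.05, 0.034), and *HEMA1*, the first committed step of tetrapyrrole synthesis, in *efl2 efl4* (0.36 ± 0.07, 0.018). Of 10 transcriptional regulators of the greening genes, *GNC*, a GATA factor that promotes chlorophyll genes, was called lower with the block in *fld* (-0.42 ± 0.06, adjusted p 0.00604) and *ld* (-0.46 ± 0.06, 0.00381). *GNC* had 1426 and 1549 reads in Col-0, 1132 and 1089 in *fld*, 1026 and 1095 in *ld*, 975 and 1138 in *sdg26 aprf1*, and 1350 and 1278 in *efl2 efl4*, so every mutant library was below both of Col-0. Of 9 clock genes tested, *LHY*, the partner of *CCA1*, was called lower in *fld* (-0.65 ± 0.10, 0.00587) and *ld* (-0.64 ± 0.09, 0.00706). Of 3 dark-induced genes, 2 were called higher in each of these 2 mutants, *ASN1* in both, *DIN1* in *fld* and *DIN10* in *ld*. By edgeR on all 10 libraries with the block, the calls of *GNC* and *ASN1* in *fld* and of *FD1* and *GNC* in *ld* were also made. Those of *GAPB*, *FD1*, *PORB*, *LHY* and *DIN1* in *fld*, of *PORB*, *LHY*, *ASN1* and *DIN10* in *ld* and of *HEMA1* in *efl2 efl4* were not. The same test called *GAPB* lower in *efl2 efl4* and *FD1* and *GNC* lower in *sdg26 aprf1*, which limma with the block did not. The part of these genes in the *LHCB1* differences was not tested.

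Between the replicate sets, some genes of these lists differed by a mean log2 value over 1, which no member did. In set 2, 5 of 9 clock genes were lower and 1 higher at an adjusted p under 0.05, among them *GI* at -1.23 ± 0.15, where 13.9% of all genes were higher and 15.2% lower. *GI* had 147 and 57 reads in Col-0, 211 and 54 in *fld*, 138 and 62 in *ld*, 113 and 60 in *sdg26 aprf1*, and 114 and 64 in *efl2 efl4*, set 1 first, and every set 2 library was below every set 1 library. Of the 8 stress-related LHC-like proteins, 4 were lower, led by *ELIP1* (-1.32 ± 0.21, adjusted p 0.00116) and *ELIP2* (-1.04 ± 0.17, 0.00122), which accumulate under strong light. Of the 3 dark-induced genes 2 were higher, *DIN1* (1.21 ± 0.17) and *DIN10* (1.15 ± 0.20). The sizes were uneven between genotypes. Set 1 first, *DIN10* had 2431 and 9798 reads in Col-0 but 7183 and 8947 in *sdg26 aprf1*. *ELIP1* had 359 and 94 in Col-0 but 204 and 147 in *sdg26 aprf1*. *CAO*, which makes chlorophyll b, differed by -0.71 ± 0.04 and was lower in 5 of 5 genotypes, from between 1460 and 1666 reads in set 1 to between 859 and 1041 in set 2. Of the 10 transcriptional regulators 5 were lower, *HY5*, *PIF1*, *PIF3*, *GLK1* and *GLK2*, the last 2 being activators of the *LHC* genes. Of 9 root markers 2 were higher and 1 lower in set 2, and 1 of 3 guard cell markers was higher. The part of these markers in the differences between the sets was not tested.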

How the data were processed

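RNA-seq was performed on 10 libraries, 2 per genotype. The authors aligned single-end reads of 50 bases to TAIR10 with HISAT2, used featureCounts to count exon reads and edgeR to normalize. The 4 deposited tables hold this signal, normalized reads per gene, each table normalized on its own and each repeating the 2 Col-0 libraries. The annotation, the strand setting and the handling of reads with several matches are not given in the sources used here. Coordinates are those of the RefSeq TAIR10.1 annotation.

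Whole reads were recovered from the steps of the deposited values. Within 0.1 of a whole number, between 99.0% and 100% of values per library came out whole, and the Col-0 reads were identical in all tables. Depth was 20455413 to 20768023 reads. Genes averaging 10 or more normalized reads in a table were tested by limma (3.58.1, R 4.3.3) with a trend on log2(normalized reads + 1), within each table, so fold changes understate those of low genes. Alternatives were pseudocounts of 5 and 0.5, no filter, edgeR (4.0.16) and DESeq2 (1.42.0) on recovered reads, the replicate block and each library left out. Fits of all 10 libraries in edgeR were added after seeing the data. With 1 library left in a group, its spread is assumed to be that of the other group. With the block, limma within a table keeps little spread of a gene's own, so its p-values lean on the spread of other genes. Scripts were tested on simulated data.

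Deviations of same-numbered libraries from their genotype means correlated in all 10 pairs of genotypes (r from 0.438 to 0.721 over 20057 genes), so the numbers pair the libraries. The pairing comes from these data, and the labels do not say what a number marks. The genes and lists were chosen with earlier results of these data known. Named genes are the 12 members with the lowest unadjusted P under 0.05, the 4 largest and 2 smallest set differences in each class, near-identical copies, low antenna genes and list genes past a threshold.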

Additional observations from a re-analysis of the deposited data

Results flagged for a closer look

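Of the photosystem genes, 4 differed among the 4 mutants in edgeR's F test with the replicate block. *LHCB1.4* had an adjusted p of 8.3e-04, *LHCB1.2* of 0.01, *LHCA3* of 0.0186 and *LHCA1* of 0.0245. Their mutant means were highest in *ld* and *fld*. The same test without the block called none of them (unadjusted P from 0.0027 to 0.0168).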

How the results depend on the processing

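Of the values for named genes under the alternatives, 453 kept their direction and their side of the threshold, 66 lost the call, 24 gained one and 9 changed sign, and the cause was not tested. The sign changes were in set differences near 0 when 1 genotype was left out: *LHCB5* ranged from -0.031 to 0.019, *LHCB3* from -0.019 to 0.022, *PSAH-2* from -0.021 to 0.026 and *PSBQ-1* from -0.025 to 0.039.

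With the replicate block in limma, members with an unadjusted P under 0.05 numbered 24 in *fld*, 24 in *ld*, 6 in *sdg26 aprf1* and 6 in *efl2 efl4*, where 13.9%, 16.6%, 8.57% and 14.2% of all genes passed, so that the share in *efl2 efl4* was near that of all genes. Counts on all 10 libraries in edgeR with the block were 22 in *ld*, 9 in *sdg26 aprf1* and 10 in *efl2 efl4* (13.5%, 14.5% and 16.0% of all genes). The exact test of edgeR gave 8 in *fld*, 7 in *ld* and 0 in *sdg26 aprf1* (3.1%, 3.52% and 4.17%). DESeq2 gave 0 in *sdg26 aprf1* and 2 in *efl2 efl4* (2.55% and 2.51%), where no filter gave 1 (5.76%). Leaving out a library gave 7 to 9 in *fld*, 4 to 18 in *ld*, 0 to 3 in *sdg26 aprf1* and 0 to 3 in *efl2 efl4*, where 1.95% to 3.57%, 2.5% to 3.81%, 3.24% to 6.83% and 3.07% to 4.68% of all genes passed. Members past the study's thresholds ranged from 0 to 1 in *fld* and from 0 to 2 in *ld* when a library was left out, and 0 passed an adjusted p under 0.05 in limma in either. The antenna minus reaction-centre median ranged from -0.0004 to 0.1704 in *fld*, from 0.0472 to 0.2361 in *ld* and from -0.1113 to 0.1033 in *efl2 efl4* when a library was left out. Between the sets, 7 members were called without pairing by genotype and 0 at a log2 difference of at least 1. Without the block, 0 members differed among the mutants in edgeR.

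The *LHCB2* genes had 559 to 1324 reads per library, and shared windows limit the *LHCB1* and *LHCB2* copies.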
